A study of Mus musculus with 2 samples.

Results

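The genes described here are the ligands and receptors that steer growing axons: ephrins and Eph receptors, semaphorins with their plexin and neuropilin receptors, Slits with Robo receptors, and netrins with Dcc and Unc5 receptors. Members were all genes whose symbol follows the naming pattern of one of these families and that had at least 20 UMIs (unique molecular identifiers, one per captured RNA molecule) over both libraries. Of 32285 genes, 69 matched a pattern and 68 had enough UMIs. Plxnb3, with 11 UMIs, fell short, and Ntn5 had the fewest of those kept. The 68 genes numbered 9 ephrin-A receptors, 5 ephrin-B receptors, 8 ephrins, 7 secreted class 3 semaphorins, 13 membrane semaphorins, 10 plexins and neuropilins, 7 Slits and Robos, and 9 netrins, Dcc and Unc5 receptors.

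Single-cell RNA was sequenced from mouse embryos labelled as brain tissue, in 1 library of embryos with neural tube defects (NTD) and 1 control library. The NTD dams were kept on a low-folate diet and were injected intraperitoneally with methotrexate (MTX), an antagonist of folate, at 1.5 mg/kg on gestational day 7.5. The control is labelled normal saline, with a rounded body and a closed neural tube. Its injection day is recorded as 7.5 as well, and its diet is not given in the sources used here. Closure was watched from day 9.5 to day 10.5, NTD embryos were small and delayed with hindbrain malformation and spina bifida, and the number, exact stage and sex of embryos per library are not given. With 1 library per group there was no test between groups: every interval below is a 95% interval of counting error only, and no difference has a replicate check.

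After filtering, 15813 control cells with 40093407 UMIs and 16151 NTD cells with 45262958 UMIs remained, at medians of 2173 and 2435 UMIs per cell. The libraries shared 77 barcodes among kept cells. The libraries differed in the cell types and axial levels they held. Cells led by Tbx15, Tbx4 and Tbx5 numbered 2040 control and 49 NTD cells, and those led by Wt1 and Gata4 numbered 1302 and 76. The first are genes of limb and body wall and the second of visceral tissue, and both clusters stayed unnamed. In all, 6 unnamed clusters with 46.4% of control and 18.3% of NTD cells entered no class comparison, among them cluster 1 (402 control and 2529 NTD cells, led by histone genes) and cluster 3 (2378 and 45, led by Apoa2, Apoa1 and Afp), whose control cells had medians of 1122.5 and 1127 UMIs. In neural progenitor-like cells, 31 Hox genes of groups 4 to 13, which mark the hindbrain, spinal cord and trunk, summed to 781 CPM in control and 21.2 CPM in NTD cells, where CPM is a gene's UMI count scaled to a common total for each cell class. No UMI of 39 Hox genes was found in 32.1% of control and 87.6% of NTD progenitor-like cells. Ribosomal protein genes took 7.4% and 11.9% of UMIs in that class. Axial position, treatment and developmental delay therefore cannot be told apart in a comparison of the libraries, and the main counts and ratios of neural cells are also given for cells with no Hox UMI. Lack of a Hox UMI at these depths does not show that a cell expressed no Hox gene. That set was thus not matched for axial level, and its progenitor-like cells had medians of 2030.5 control and 2518 NTD UMIs.

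Guidance cues are read by receptors on the growth cone at the tip of an axon. Netrin attracts through Dcc and repels where Unc5 takes part, and Slit repels through Robo receptors, a system best known at the ventral midline of the hindbrain and spinal cord. Class 3 semaphorins are secreted and bind neuropilins, which signal through plexins, while ephrins stay on the membrane and signal to Eph receptors on the cell they touch. The same families also act outside axons: Eph-ephrin contact sharpens brain boundaries, and Sema3e with Plxnd1, Ephb4 with Efnb2, and Robo4 shape blood vessels.

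Robo3 and Robo4 are shown in sequence because these neighbours on chromosome 9 were read in different cell types. Robo4 (ENSMUSG00000032125) lies at chr9:37401897-37415115 on the plus strand and Robo3 (ENSMUSG00000032128) at chr9:37415669-37433246 on the minus strand in GRCm38, so that their 3′ ends lie 553 bases apart. Plxnd1 and Sema3g stand beside them as further genes highest in endothelial-like cells, and Slit2 (ENSMUSG00000031558, chr5:47983138-48307733, plus strand) as a ligand for which 1 cluster gave most of the UMIs of control neuron-like cells. Each stretch below covers 150 bases, from 225 to 76 bases before the RefSeq start on GRCm38.p6. Capitals mark any match, on either strand, to 1 of 6 short motifs: CCGGAA and GGAAG (ETS), TGTTTAC (forkhead), CAGCTG and CAGATG (E-boxes) and TAATTA (homeobox).
Robo3, chr9:37433251-37433400, minus strand: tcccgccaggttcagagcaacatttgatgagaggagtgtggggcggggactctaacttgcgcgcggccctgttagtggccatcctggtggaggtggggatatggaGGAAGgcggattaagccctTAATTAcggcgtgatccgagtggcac
Robo4, chr9:37401747-37401896, plus strand: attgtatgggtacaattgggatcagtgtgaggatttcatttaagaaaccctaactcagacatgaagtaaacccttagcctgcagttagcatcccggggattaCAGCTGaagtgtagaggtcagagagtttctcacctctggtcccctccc
Plxnd1, chr6:115995081-115995230, minus strand: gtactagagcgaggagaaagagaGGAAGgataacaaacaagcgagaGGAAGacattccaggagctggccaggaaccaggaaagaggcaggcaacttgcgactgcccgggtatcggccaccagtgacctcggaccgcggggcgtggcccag
Sema3g, chr14:31217648-31217797, plus strand: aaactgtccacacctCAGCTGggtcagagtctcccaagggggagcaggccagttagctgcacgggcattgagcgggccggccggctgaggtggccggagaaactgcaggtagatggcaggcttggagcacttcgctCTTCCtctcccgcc
Slit2, chr5:47982930-47983079, plus strand: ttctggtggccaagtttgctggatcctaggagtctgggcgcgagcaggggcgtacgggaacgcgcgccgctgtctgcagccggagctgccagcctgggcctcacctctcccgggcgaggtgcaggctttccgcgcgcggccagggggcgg
The genes and motifs were picked after expression values had been seen. Over 32851 RefSeq promoters, the same 150-base window held CCGGAA in 5.89%, GGAAG in 44.8%, TGTTTAC in 1.96%, CAGCTG in 7.90%, CAGATG in 9.17% and TAATTA in 3.15%. RefSeq promoters were found for 58 of the 68 genes, 74 promoters in all. Over the full 250 bases before the start, the members' shares were 9.46% against 12% of all promoters for CCGGAA, 67.6% against 64.1% for GGAAG, 0% against 3.17% for TGTTTAC, 14.9% against 13% for CAGCTG, 6.76% against 14.4% for CAGATG and 4.05% against 4.84% for TAATTA. A match describes the letters of the window and not a bound site.

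The 68 genes together gave 920335 UMIs, from 58 for Ntn5 to 236733 for Dcc. Their summed level was 18950 CPM in control and 15722 CPM in NTD neuroblast-like cells, 18917 and 13753 CPM in neuron-like cells, 9704 and 7122 CPM in neural progenitor-like cells, and 2929 and 2463 CPM in erythroid-like cells. Values of erythroid-like cells were taken as the level of free RNA in the droplets, and a level at or below theirs was read as background. Whether these cells express any member themselves was not tested. For Sema4c they were the highest of the NTD classes, at 17.7 CPM. Levels of different genes were not ranked: log10 UMIs followed log10 genomic span across the 68 genes (Pearson r = 0.743, a description with no test), as spans ran from 4.64 to 1097 kb.

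**Figure D1:**
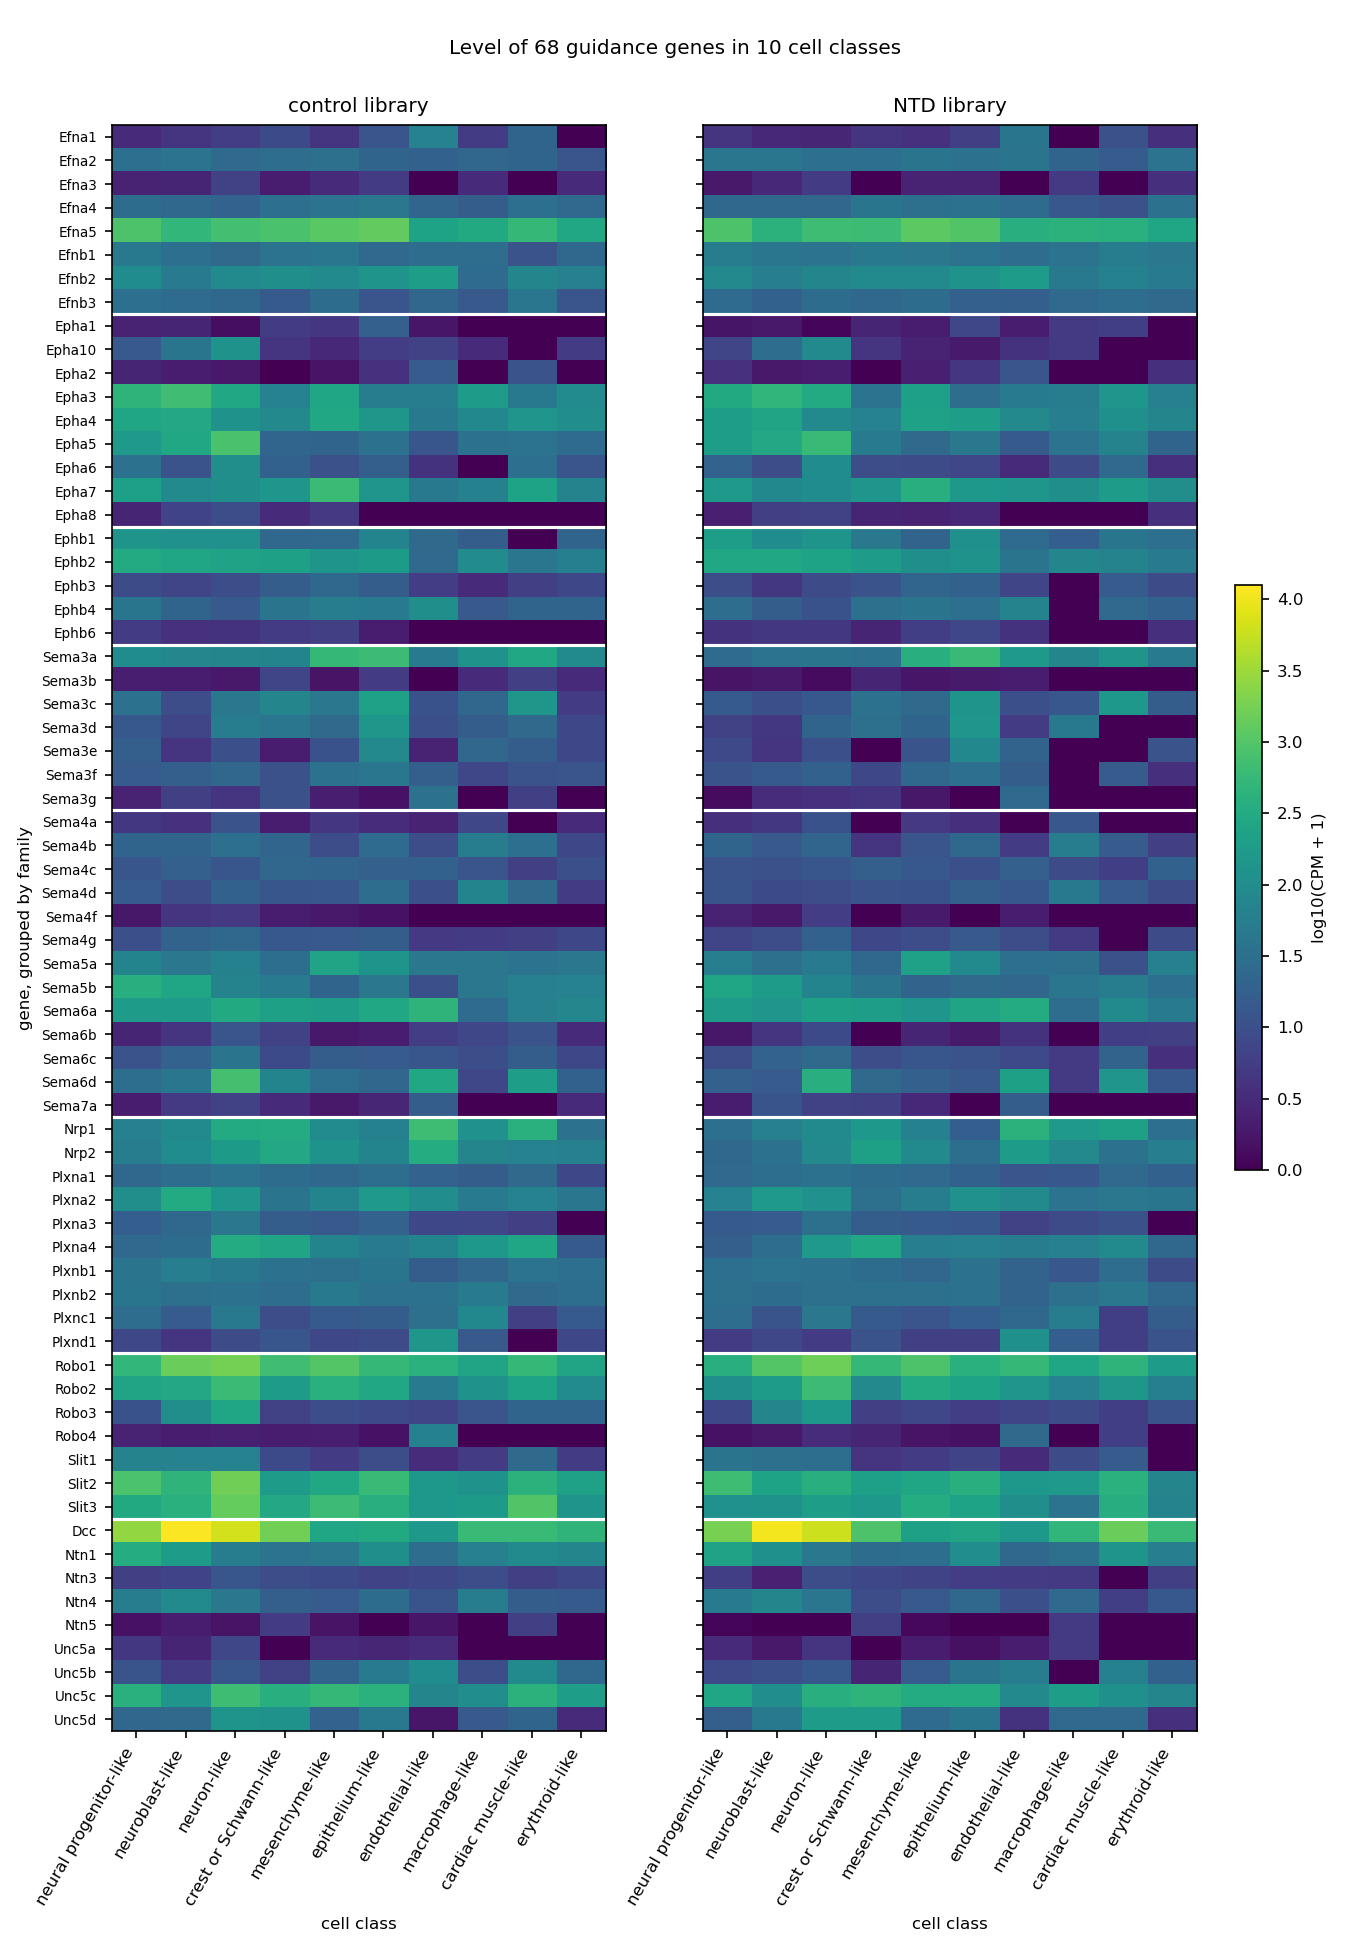
Level of each of the 68 genes, grouped by family, in 10 cell classes of the control (left) and NTD (right) library, coloured by log10(CPM + 1). Robo4, Sema3g and Plxnd1 stand out in endothelial-like cells, Robo3 in neuron-like cells and Ntn1 in neural progenitor-like cells of both libraries.

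For 67 members with at least 20 UMIs in each library, levels were compared over 10 classes, and 51 were highest in the same class in both libraries. Neuron-like cells were the top class of 16 of these, endothelial-like cells of 10, neuroblast-like cells of 7, progenitor-like and epithelium-like cells of 5 each, macrophage-like and mesenchyme-like cells of 3 each, and neural crest-like and cardiac-like cells of 1 each. The 16 others had different top classes. Among them, Slit3 was highest in control neuron-like cells (1357 CPM) but in NTD cardiac-like cells (358 CPM).

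Netrin 1 (Ntn1), the midline attractant, had its highest CPM of the 10 classes in progenitor-like cells. Among their clusters it was highest in the floor plate-like one, the ventral midline cells known to secrete it. This cluster held 34.9% of the control and 38.2% of the NTD Ntn1 UMIs of the class. In that cluster, of 281 control and 488 NTD cells, Ntn1 stood at 1297 CPM (1218 to 1380.3) in control and 977 CPM (927 to 1028) in NTD cells. The other 4 progenitor-like clusters ranged from 101 to 319 CPM (control) and from 94.5 to 225 CPM (NTD), and erythroid-like cells held 75.2 and 55.7 CPM. The NTD level in the floor plate-like cluster was thus lower by a log2 ratio of -0.41 (-0.53 to -0.29), yet above every other progenitor-like cluster of either library. At 1500 UMIs per cell, 83.4% (78.1 to 87.9) of control and 67.6% (63.3 to 71.8) of NTD floor plate-like cells held an Ntn1 UMI, against 89.3% and 82.8% before thinning. Erythroid-like cells, the free-RNA reference, held an Ntn1 UMI in 5.93% and 6.54% at the same depth.

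The Slits, midline repellents, were read in the same floor plate-like cells. Slit1 stood there at 423 and 272 CPM (log2 ratio -0.64, -0.85 to -0.42), Slit2 at 3419 and 3032 CPM (-0.17, -0.24 to -0.10), and Slit3 at 1166 and 538 CPM (-1.12, -1.25 to -0.98). All 3 intervals lay below 0, and the Slit3 difference was the widest. The summed floor plate marker list was 3791 CPM in control and 2922 CPM in NTD cells of this cluster, lower on the same side as Ntn1 and the Slits. Its part in these differences was not tested. Of 48 members measured in the cluster, 17 were at least 1.5-fold lower in NTD cells, against 15.0% of all genes, and 3 were higher, against 8.43%.

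**Figure D2:**
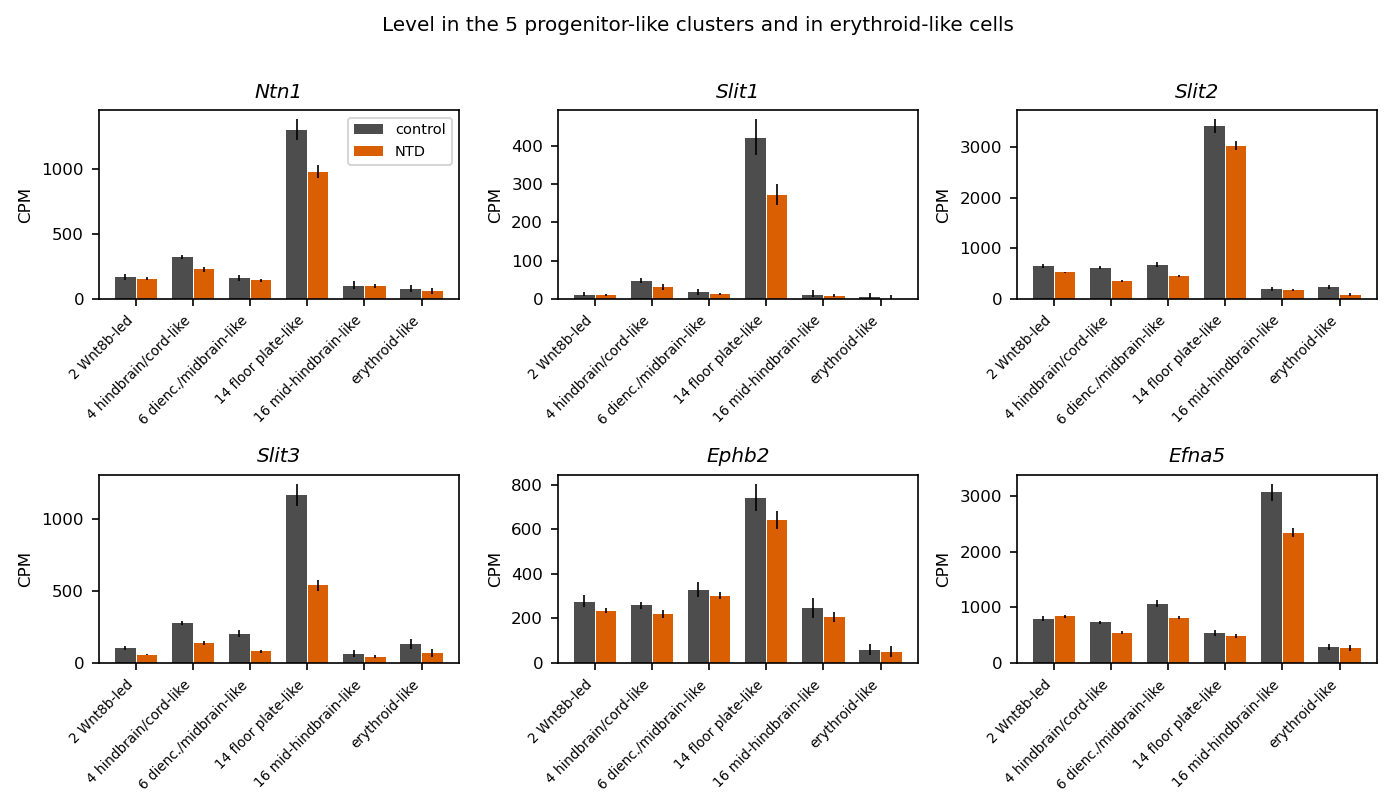
CPM of 6 guidance genes in the 5 progenitor-like clusters and in erythroid-like cells, with control and NTD bars side by side and 95% Poisson intervals. Ntn1, Slit1, Slit2 and Slit3 are highest in the floor plate-like cluster of both libraries, and Efna5 in the midbrain-hindbrain boundary-like cluster.

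In all 2950 control and 5636 NTD progenitor-like cells, 66 members had at least 20 UMIs over both libraries. Of these, 25 were at least 1.5-fold lower in the NTD library (37.9%), against 16.3% of all genes measured in the class, and 3 were at least 1.5-fold higher, against 5.4%. Intervals lay below 0 for 20 of the 25, and held 0 for all 3 higher genes (Efna1, Epha2 and Sema4f). The median log2 ratio was -0.45 for members and -0.20 for all genes. The count moved with the scaling and with the cells used. TMM scaling put the common shift of all genes in the class at -0.24, and relative to it 4 members were higher and 15 lower, against 12.3% and 8.72% of all genes. Relative to genes of like span 5 were higher and 14 lower, against 7.26% and 11%. Without the floor plate-like cluster 14, 4 of 64 were higher and 22 lower, against 5.71% and 16.4%. In the 946 control and 4938 NTD progenitor-like cells with no Hox UMI, 1 of 60 was higher and 10 were lower, against 5.14% and 14.6% of all genes there.

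By family, 5 of 6 measured secreted semaphorins, 5 of 10 plexins and neuropilins, 4 of 7 Slits and Robos, 4 of 9 ephrin-A receptors and 4 of 8 netrins, Dcc and Unc5 receptors were lower in NTD progenitor-like cells. So were 2 of 13 membrane semaphorins, 1 of 8 ephrins and 0 of 5 ephrin-B receptors, all beside 16.3% of all genes. Intervals lay below 0 for 4 of the 5 secreted semaphorins, 5 of the 5 plexins and neuropilins, 3 of the 4 Slits and Robos, 3 of the 4 ephrin-A receptors and 4 of the 4 netrins, Dcc and Unc5 receptors. In cells with no Hox UMI the lower members were 3 of 5 secreted semaphorins, 2 of 10 plexins and neuropilins, 1 of 6 Slits and Robos, 1 of 8 ephrin-A receptors, 1 of 8 netrins, Dcc and Unc5 receptors, 1 of 11 membrane semaphorins, 1 of 5 ephrin-B receptors and 0 of 7 ephrins, beside 14.6% of all genes. No background cut was applied to these family counts, which include Sema3a and Nrp2, whose levels are set against free RNA in the next paragraph. The 3 lower secreted semaphorins in cells with no Hox UMI had low levels. They were Sema3a (36.8 and 24.3 CPM), Sema3d (10.0 and 5.23 CPM) and Sema3e (13.9 and 6.70 CPM). In all progenitor-like cells the repellent Slit3 stood at 305 and 119 CPM (log2 ratio -1.36, -1.44 to -1.27), and at 199.7 and 115 CPM (-0.80, -0.95 to -0.64) in cells with no Hox UMI. The Slit receptor Robo2 stood at 245 and 108 CPM (-1.19), and its ratio was -0.41 in cells with no Hox UMI, -0.65 with called doublets kept and -0.36 with cells of at least 1000 genes and 2000 UMIs, below the 1.5-fold threshold in the first and last of these. With those stricter cells, a cluster of 660 control and 24 NTD cells, with Hoxd4 among its top genes, was unnamed and did not enter the class. Slit3 and Robo2 were lower in NTD cells, by less, among cells with no Hox UMI.

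Sema3a, a repellent secreted semaphorin, stood at 95.9 CPM (797 UMIs) in control and 25.7 CPM (428 UMIs) in NTD progenitor-like cells, a log2 ratio of -1.90 (-2.07 to -1.73). The ratio was -0.77 with called doublets kept, -0.73 with the stricter cells and -0.97 with clusters weighted equally. Its level in erythroid-like cells was 88.5 and 48.1 CPM, so the control level lay within the counting interval of the free-RNA level (63.2 to 120.5) and the NTD level, read as background, below it. The control value was higher in the hindbrain and cord-like cluster, at 147 CPM, beside 44.6 CPM in its NTD cells. At a clustering resolution of 2.0, 66.9% of its control but 4.51% of its NTD cells fell into a Hox-led cluster. In progenitor-like cells with no Hox UMI the Sema3a values were 36.8 and 24.3 CPM (-0.61, -0.96 to -0.22). Its receptor subunit Nrp1 stood at 59.1 and 30.4 CPM (-0.96), with ratios of -0.14 in cells with no Hox UMI and -0.51 both with the stricter cells and with clusters weighted equally, and the related Nrp2 at 53.2 and 22.3 CPM (-1.26), or 35.4 and 22.3 CPM (-0.67) there. Erythroid-like cells held Nrp2 at 59.7 and 55.7 CPM, so its progenitor-like levels were read as background too. For Nrp1 in progenitor-like cells no reading against free RNA was made.

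Ephrins and Eph receptors ran both ways. Ephb1 (ENSMUSG00000032537, chr9:101922128-102354693), a receptor for ephrin-B, read 133 CPM in control progenitor-like cells against 198 CPM in NTD ones, a log2 ratio of 0.57 (0.48 to 0.68), just under the 1.5-fold threshold. In cells with no Hox UMI the ratio was 0.29. Ephrin-A5 (Efna5), which patterns the midbrain and forebrain through EphA receptors, stood at 916 and 899 CPM, with an interval that held 0. Its level was highest in the midbrain-hindbrain boundary-like cluster, at 3073 and 2346 CPM. Of the EphA receptors that read it, Epha3 stood at 466 and 308 CPM (-0.60; 319 and 306 CPM, with an interval that held 0, in cells with no Hox UMI), Epha4 at 262 and 192 CPM (-0.45), Epha7 at 204 and 159 CPM (-0.36) and Epha5 at 163 and 196 CPM (0.27). Only Epha5 of these 4 was higher in NTD cells, and it was not higher with stricter cells (-0.03) or with clusters weighted equally (-0.11). The ephrin-B receptor Ephb2 stood at 316 and 283 CPM, its ligand Efnb1 at 44.3 and 51 CPM, and the small ephrin Efna2 at 30.7 and 39 CPM (0.35, 0.14 to 0.56).

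Other receptors and ligands of progenitor-like cells were lower as well, some past 1.5-fold and some not. Dcc stood at 2774 and 1819.9 CPM (-0.61, -0.63 to -0.58) and Unc5c at 403 and 258 CPM (-0.64, -0.71 to -0.58). Robo1 stood at 511 and 366 CPM (-0.48), and Slit2 at 862 and 667 CPM (-0.37). In cells with no Hox UMI, Dcc stood at 2094 and 1816 CPM (-0.21, -0.25 to -0.16), Unc5c at 349 and 256 CPM (-0.44), Slit2 at 887 and 684 CPM (-0.37) and Robo1 at 347 and 359 CPM (0.05, -0.06 to 0.16). The Robo1 difference was thus not present there, and that of Dcc was smaller. The membrane semaphorin Sema5b, known to repel axons of the retina, was highest in this class and stood at 371 and 261 CPM (-0.50), while the ratio of Sema6a was -0.03 (-0.12 to 0.06). Of the plexins that carry semaphorin signals, Plxna2 stood at 105 and 64.5 CPM (-0.70, -0.83 to -0.57), or 78.3 and 62.2 CPM (-0.34) in cells with no Hox UMI, and Plxna1 at 22.9 and 23.8 CPM.

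The hindbrain and cord-like cluster, of 1383 control and 910 NTD cells, held wide differences. Its cells did not stay together at a clustering resolution of 2.0: 66.9% of the control but 4.51% of the NTD cells fell into the Hox-led hindbrain or spinal cord-like cluster there, and 51.3% and 33.7% of the NTD cells into a pair of unnamed progenitor-like clusters. The values below thus rest on a cluster that joined them. Robo2 stood there at 330.3 and 71.8 CPM (-2.20, -2.43 to -1.98), and the ephrin-A receptor Epha3 at 584 and 227 CPM (-1.36, -1.49 to -1.24). The netrin receptor Unc5c went the other way, 514 and 680.0 CPM (0.41, 0.31 to 0.50), while it was lower in the other 4 progenitor-like clusters. Of 55 members measured there, 18 were at least 1.5-fold lower, against 19.7% of all genes, and 1 was higher, against 8.24%. Hox genes of groups 4 to 13 summed to 1243 CPM in control and 43.1 CPM in NTD cells of this cluster, and their part in these differences was not tested. Over the 5 progenitor-like clusters, 18 of 42 members measured in each were lower in all of them, beside 32% of 10077 genes, and 0 were higher in all. Intervals lay below 0 in all 5 clusters for 0 of the 42 members, beside 2.81% of all genes.

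**Figure D3:**
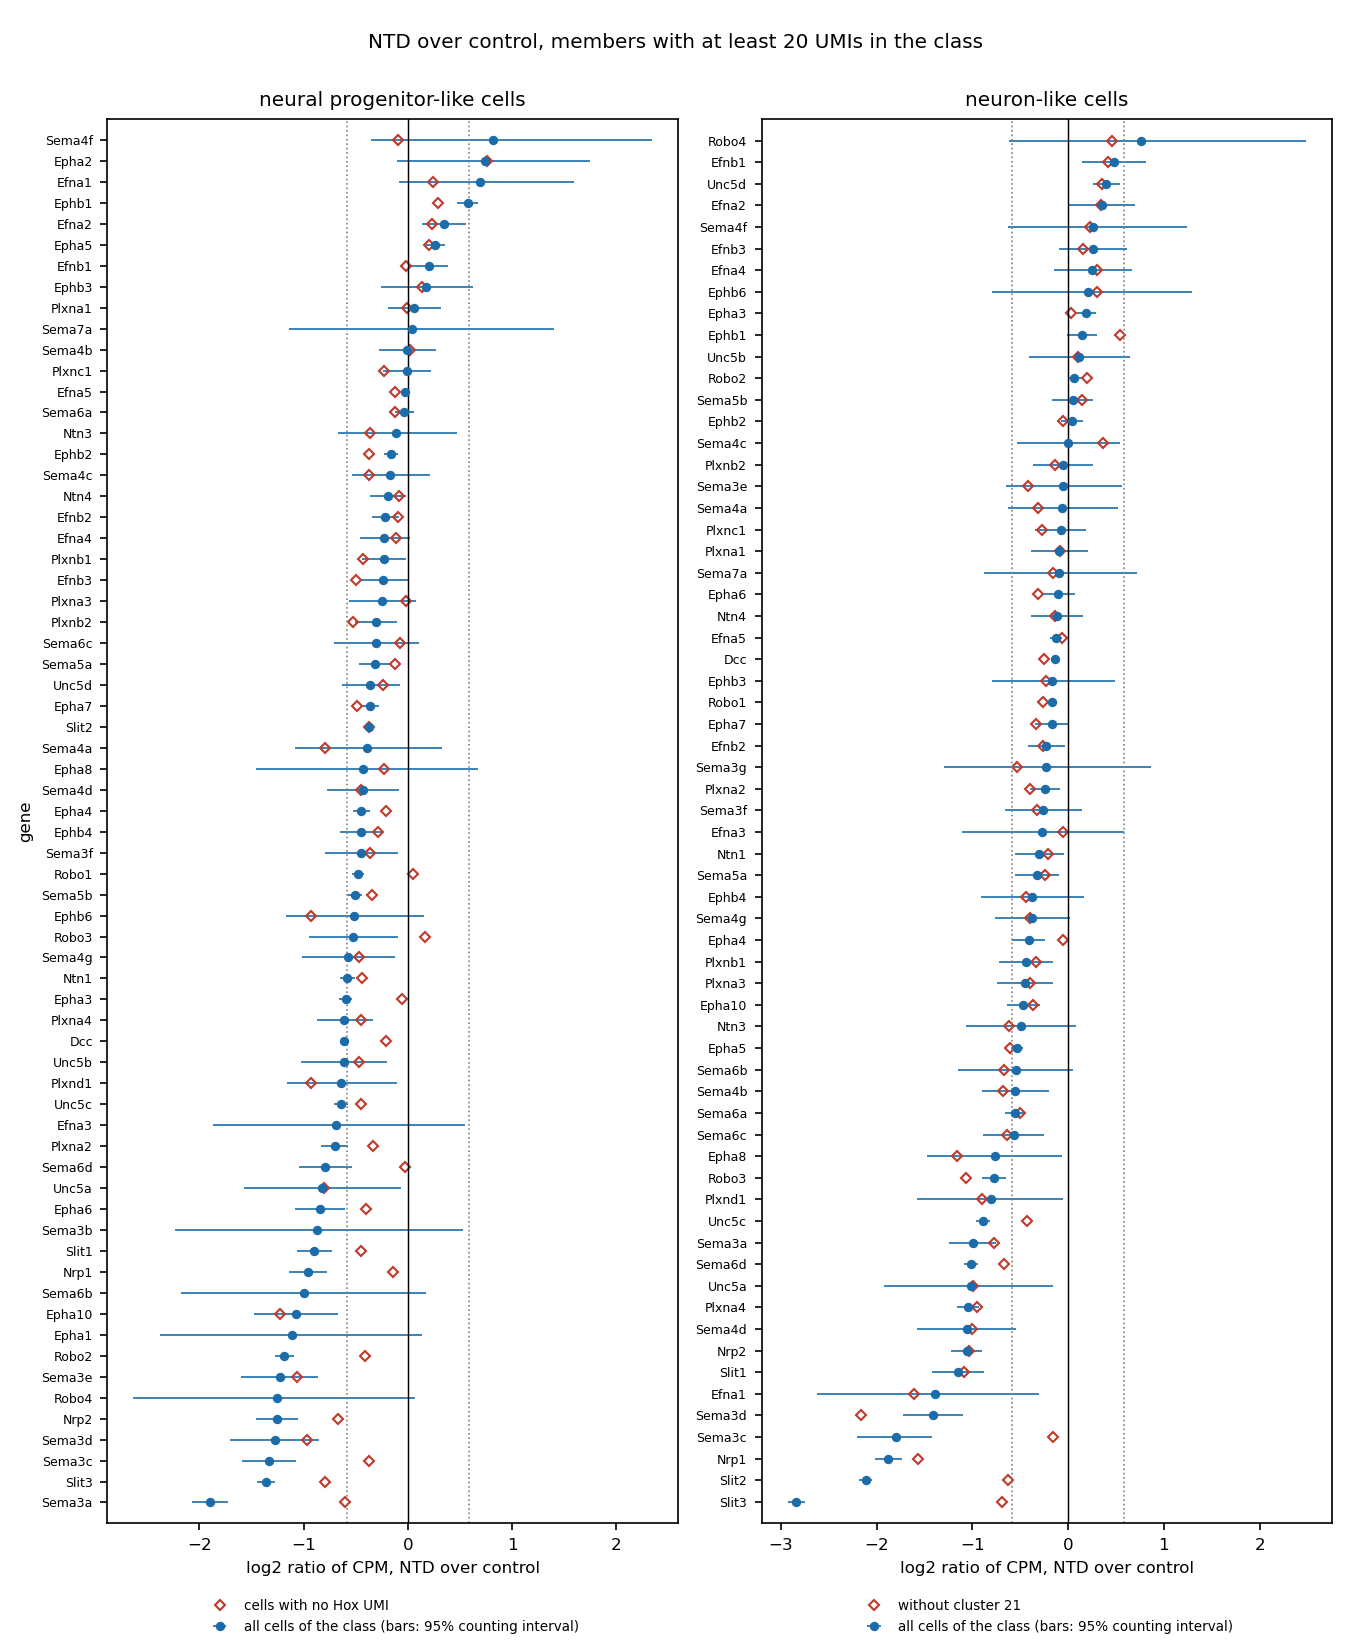
Log2 ratio of NTD over control for each member in neural progenitor-like (left) and neuron-like cells (right), with 95% counting intervals for all cells of the class and diamonds for cells with no Hox UMI (left) or without cluster 21 (right). Dotted lines mark 1.5-fold. The diamond of Sema3a on the left (-0.61) and those of Slit2 (-0.63) and Slit3 (-0.70) on the right lie nearer to 0 than their circles.

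In 1480 control and 2187 NTD neuron-like cells, 64 members were measured. Of these, 17 were at least 1.5-fold lower in NTD cells (26.6%), against 16.6% of all genes, with all 17 intervals below 0, and 1 was higher, against 9.12%. The higher gene was Robo4, at 1.31 and 2.33 CPM with an interval that held 0. The median was -0.27 for members and -0.16 for all genes. With TMM scaling 3 were higher and 15 lower, against 16.1% and 9.19% of all genes. Relative to genes of like span 2 were higher and 17 lower, against 9.63% and 11.7%. In cells with no Hox UMI 2 of 61 were higher and 17 lower, against 9.5% and 17.4%.

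The widest differences in neurons were of Slits. Slit3 stood at 1357 and 189.6 CPM (-2.84, -2.93 to -2.75) and Slit2 at 1639 and 378 CPM (-2.12, -2.18 to -2.05). Most of the control UMIs came from 1 cluster, number 21, led by Chat, Lhx4 and Tbx20 and holding 292 control and 73 NTD cells. Chat makes acetylcholine and marks motor neurons, a cell type known to express Slits. Cluster 21 held 93.6% of the control and 65.2% of the NTD Slit3 UMIs of the class, and 74.5% and 11.5% of its Slit2 UMIs.

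Within cluster 21, Slit2 stood at 5472 CPM (5329 to 5617) in control and 1064 CPM (943 to 1196) in NTD cells, and Slit3 at 5693 CPM (5548 to 5841) and 3024 CPM (2817 to 3241). Sema6d, a membrane semaphorin, stood at 1658 and 1641 CPM there, with an interval that held 0. The markers of the cluster differed too: Tbx20, a gene of cranial motor neurons, was at 61.6 and 460 CPM, Chat at 159 and 19 CPM, and Hox genes of groups 4 to 13 summed to 870 and 41.8 CPM. Of 48 members measured in the cluster, 17 were at least 1.5-fold lower, against 21.8% of all genes, and 9 were higher, against 15.0%. Without cluster 21, Slit2 was at 538 and 349 CPM (-0.63), Slit3 at 111 and 68.7 CPM (-0.70), and 0 of the members were higher and 20 lower, against 8.47% and 16.1% of all genes. In neuron-like cells with no Hox UMI, Slit2 stood at 589.6 and 359 CPM (-0.72, -0.86 to -0.57) and Slit3 at 417 and 173 CPM (-1.27, -1.45 to -1.08).

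**Figure D4:**
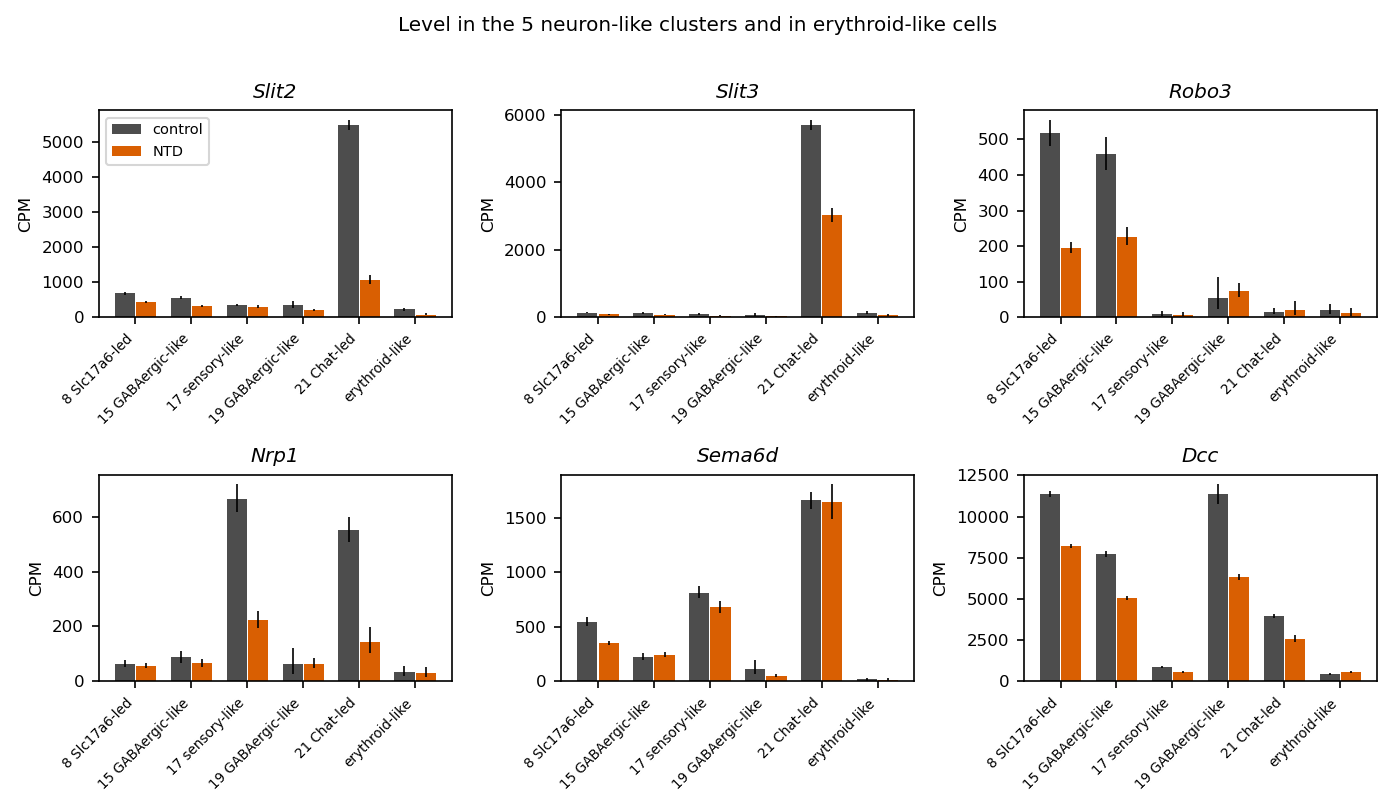
CPM of 6 guidance genes in the 5 neuron-like clusters and in erythroid-like cells, with 95% Poisson intervals, control and NTD side by side. Slit2 and Slit3 are highest in the Chat-led cluster 21, Nrp1 in clusters 17 and 21, Robo3 in clusters 8 and 15, and Dcc in clusters 8, 15 and 19.

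Dcc, the netrin receptor, was highest in neuroblast-like cells (11768 and 10644 CPM) and stood at 6629 and 6037 CPM in neuron-like cells (-0.14, -0.16 to -0.11). Within neuron clusters the gap was wider: 11356 and 8208 CPM in the Slc17a6-led cluster 8, 7741 and 5049 CPM in the GABAergic-like cluster 15, and 884 and 574 CPM in the sensory-like cluster 17. Slc17a6 encodes a vesicular glutamate transporter. Over clusters 8, 15 and 17, 19 of 43 members measured in each were lower in all 3, beside 37.5% of 9818 genes. In cluster 8 alone, 19 of 60 members were at least 1.5-fold lower, against 14.6% of all genes, and 1 was higher, against 8.25%. Intervals lay below 0 in all 3 for Dcc, Nrp2, Robo1, Sema3a, Sema6a and Slit3, 6 of 43 members beside 4.81% of all genes. Efnb1, Ephb1, Robo2 and Unc5d were higher in all 3, with intervals above 0 in all 3 for 1 of them, Robo2. Clusters 19 and 21, with 57 control and 73 NTD cells, fell short of 100 cells in each library and were left out. Each of these genes was lower in cluster 19 or 21, with an interval below 0 for Robo2 (-0.78) and Ephb1 (-3.31). Over all 5 clusters, 9 of 34 members were lower and 0 higher in all, with intervals below 0 in all for Dcc only. A share of all genes was not counted for the 5.

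Robo3, which keeps commissural axons from being repelled before they cross the midline, was read in clusters 8 and 15. It stood at 517 and 196 CPM in cluster 8 (-1.40, -1.56 to -1.25) and at 458 and 227 CPM in cluster 15 (-1.02, -1.24 to -0.80), against 19.9 and 10.1 CPM in erythroid-like cells. In all neuron-like cells with no Hox UMI it stood at 291 and 139 CPM (-1.06). Its difference was thus no narrower there than in all neuron-like cells, where the values were 264 and 154 CPM (-0.77). Robo1 and Robo2, the usual Slit receptors, stood at 1747 and 1555 CPM and at 621 and 649 CPM in neuron-like cells.

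Nrp1, the receptor for Sema3a and for VEGF, stood at 666 and 224 CPM in the sensory-like cluster 17 (-1.57, -1.81 to -1.34) and at 553 and 144 CPM in cluster 21 (-1.92, -2.45 to -1.46). In cluster 8 it was at 64.9 and 57.3 CPM, with an interval that held 0. Its partner Plxna4 stood at 686 and 435 CPM in cluster 17. Over all neuron-like cells the Nrp1 ratio was -1.88, and -0.69 (142 and 88.3 CPM) in cells with no Hox UMI. The secreted semaphorins Sema3c (43 and 12.3 CPM, -1.80) and Sema3d (53.3 and 20.1 CPM, -1.41) were also lower in the class. Without cluster 21 these ratios were -0.15 for Sema3c and -2.16 for Sema3d, which was itself at 142 and 346 CPM within the cluster. Among the ephrin ligands, Efnb1 stood at 25.3 and 35.3 CPM (0.48, 0.15 to 0.81), or 0.18 (-0.41 to 0.88) in cells with no Hox UMI, and the netrin receptor Unc5d at 134 and 177 CPM (0.40, 0.26 to 0.54).

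In 1185 control and 3080 NTD mesenchyme-like cells, 60 members were measured, and 10 were at least 1.5-fold lower in the NTD library (16.7%), near the 14.6% of all genes, while 1 was higher, against 5.84%. With TMM scaling 2 were higher and 4 lower, against 11.6% and 7.65% of all genes, and relative to genes of like span 3 were higher and 3 lower, against 7.82% and 9.87%. The 10 lower became 20 with called doublets kept, against 15.1%, and 20 with members among the variable genes, against 14%. They became 18 with cells of at least 1000 genes and 2000 UMIs, against 15.0%, and 18 at a clustering resolution of 2.0, against 15.3%. The count of lower members in this class thus ran from 3 to 20 with the processing, which also changed the cells compared. In the main setting its clusters 0 and 12 held 760 and 425 control beside 2651 and 429 NTD cells. With called doublets kept it held a cluster of 1575 control and 412 NTD cells, and with members among the variable genes a cluster of 1580 and 455. At resolution 2.0 it held a cluster of 773 and 15, and with the stricter cells a cluster of 574 and 15. The part of these cells in the counts was not tested. Slit3 stood at 644 and 347 CPM (-0.89, -0.97 to -0.81), the ephrin receptor Epha7 at 620 and 371 CPM (-0.74, -0.82 to -0.66), and Unc5c at 535 and 327 CPM (-0.71, -0.79 to -0.62). With the stricter cells the ratio of Slit3 was -0.54 and that of Epha7 -0.25. Efna5 was at 1138 and 1160.2 CPM, with an interval that held 0. In cells with no Hox UMI, 1 of 55 was higher and 10 were lower, against 7.08% and 14.6%. The Epha7 difference was wider in the mesenchyme-like cluster 12, at 1021 and 604 CPM, than in cluster 0, at 365 and 318 CPM.

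The endothelial-like class, of 493 control and 292 NTD cells, carried the vascular receptors. Of 47 measured members, 9 were at least 1.5-fold lower in the NTD library (19.1%), against 15.5% of all genes, and 9 were higher (19.1%), against 8.39%. Intervals lay past 0 for 7 of the lower and 8 of the higher. Robo4, a Robo receptor of vessels, stood at 61.7 CPM (81 UMIs) in control and 25.5 CPM (25 UMIs) in NTD cells (-1.26, -1.98 to -0.61). At 1500 UMIs per cell, 8.99% (6.53 to 12) of control and 2.40% (0.969 to 4.88) of NTD endothelial-like cells held a Robo4 UMI, against 14.8% and 7.88% before thinning. Of erythroid-like cells thinned alike, 0 of 135 control and 0 of 153 NTD cells held one. An approximate upper limit of 3 counts gives shares of up to 2.22% and 1.96%, and the NTD endothelial-like interval (0.969 to 4.88) spans both. Median depths were 2439 and 2730 UMIs in endothelial-like and 1643 and 2126 UMIs in erythroid-like cells.

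Nrp2, a co-receptor for VEGF-C, stood at 343 and 177 CPM (-0.95, -1.21 to -0.70), Unc5b, a receptor of vessels and axons, at 98.2 and 54 CPM (-0.85, -1.35 to -0.39), and Ephb4, the venous receptor for Efnb2, at 109.6 and 68.3 CPM (-0.68, -1.12 to -0.26). Its ligand Efnb2, an arterial gene, stood at 190.3 and 177 CPM with an interval that held 0. The semaphorin receptor Plxnd1 (145 and 113 CPM) and the vascular ligand Sema3g (32.7 and 24.5 CPM) were below the 1.5-fold threshold. The summed endothelial marker list was 5869 CPM in control and 3894 CPM in NTD cells of the class, lower on the same side as the receptors, and its part in theirs was not tested.

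The higher endothelial values were of genes whose highest levels lay in other classes. Sema3a stood at 46.4 CPM (61 UMIs) in control and 156 CPM (153 UMIs) in NTD cells (1.74, 1.31 to 2.20), Epha7 at 44.9 and 141 CPM (1.64, 1.20 to 2.11), and Robo2 at 45.7 and 142 CPM (1.63, 1.19 to 2.09). In erythroid-like cells these genes were at 88.5 and 48.1 CPM, 66.4 and 106 CPM, and 92.9 and 58.3 CPM. Control endothelial levels thus lay below the free-RNA level, and NTD levels above it. The summed lists of other cell types in this class were 638 and 1028 CPM for neural progenitor markers, 721 and 1002 CPM for neuron markers, 587 and 689.8 CPM for mesenchyme or fibroblast markers and 554 and 767 CPM for neural crest or Schwann precursor markers. All 12 progenitor, 14 neuron and 16 mesenchyme markers and 10 of 12 crest markers had a UMI there in both libraries, and their part in these differences was not tested. With called doublets kept, the ratios were 0.37 for Sema3a, 0.56 for Epha7 and 0.13 for Robo2, and Sema5b turned from 1.20 to -0.13. In the 194 control and 254 NTD endothelial-like cells with no Hox UMI, 8 of 39 members were higher and 11 lower, against 10.3% and 16.2% of all genes. There the ratio of Sema3a was 2.30, of Epha7 1.87, of Robo2 1.82 and of Robo4 -1.37.

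**Figure D5:**
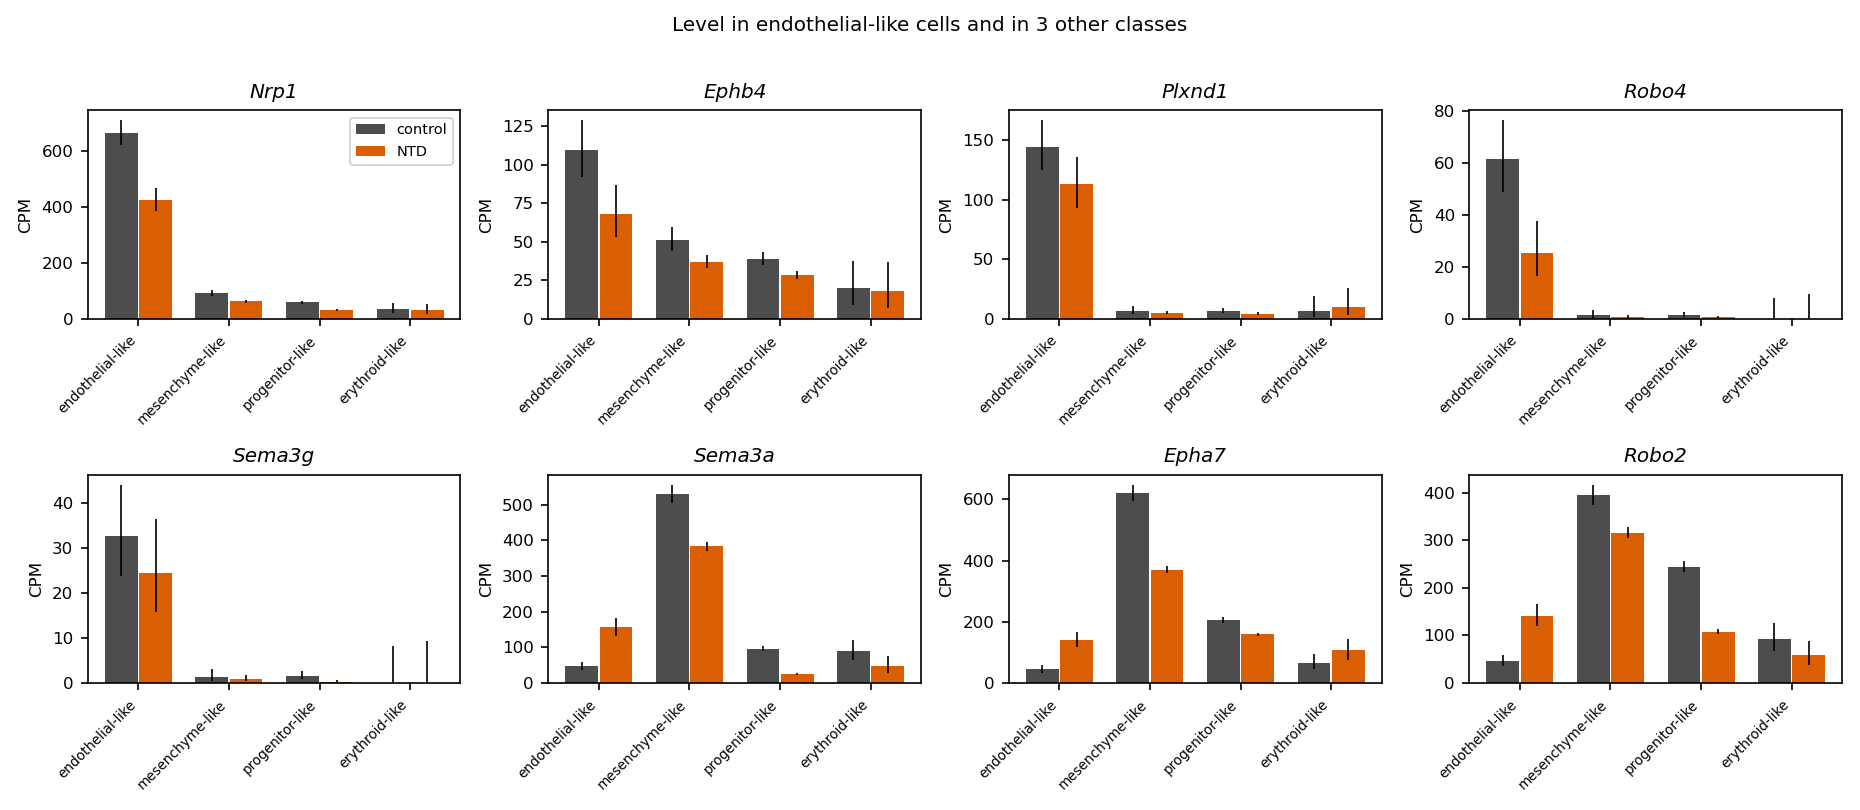
CPM of 8 guidance genes in endothelial-like, mesenchyme-like, progenitor-like and erythroid-like cells, with 95% Poisson intervals, control and NTD side by side. Robo4, Ephb4, Plxnd1, Sema3g and Nrp1 are highest in endothelial-like cells, while Sema3a, Epha7 and Robo2 are higher in NTD than control endothelial-like cells.

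Secreted semaphorins had another home in surface epithelium-like cells, where Sema3a stood at 652 and 597 CPM, Sema3d at 149 and 139.6 CPM and Sema3e at 82.5 and 80.6 CPM. Sema3c was lower there, at 221 and 130.5 CPM (-0.76). In macrophage-like cells the membrane semaphorin Sema4d stood at 69.4 and 43.9 CPM and the Sema7a receptor Plxnc1 at 82.4 and 51.9 CPM, and the intervals of both ratios held 0.

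The remaining classes had fewer UMIs. In 759 control and 873 NTD neuroblast-like cells, 14 of 51 members were at least 1.5-fold lower (27.5%), against 17.6% of all genes, and 4 were higher, against 7.67%. In epithelium-like cells 17 of 53 were lower, against 19.6%, and 3 higher, against 8.17%, and in neural crest-like cells 11 of 41 were lower, against 19.7%, and 3 higher, against 10.2%. In macrophage-like cells 9 of 27 were lower, against 24.7%, and 3 higher, against 12.2%. Crest-like cells, which form ganglia and their glia, carried Nrp1 at 328 and 154 CPM (-1.09, -1.45 to -0.76) and Nrp2 at 298 and 214 CPM (-0.48, -0.79 to -0.18). Over all kept cells 23 of 68 were lower, against 22.4% of all genes, and 1 was higher, against 5.38%, and the unequal cell makeup of the libraries enters those values.

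The other genes of the pathway were described from 2 lists. In progenitor-like cells 1 of 64 measured cytoplasmic effectors of guidance receptors was higher and 9 were lower, beside 5.4% and 16.3% of all genes, and their median log2 ratio was -0.25. Of 34 measured partner genes outside the families, such as cell adhesion molecules, 1 was higher and 9 were lower there (median -0.35), and 1 was higher and 12 lower in neuron-like cells (median -0.39), beside 9.12% and 16.6% of all genes. Among these Chl1, an adhesion molecule of axons, stood at 25.6 and 6.07 CPM in progenitor-like cells, and L1cam, another, at 79.7 and 35 CPM in neuron-like cells. Of 61 cytoplasmic effectors measured in neuron-like cells, 3 were higher and 5 lower (median -0.26), beside the same 9.12% and 16.6%. Among the lower was Grip1, a scaffold that binds ephrin ligands, at 1251 and 636 CPM.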

How the data were processed

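The authors deposited unnormalized UMI counts for each barcode and gene, from Cell Ranger 7.0.1 (per the file headers) and a 10x Chromium 3′ v3 library per group. STAR and mm10 are named in the submitters' processing notes. The sources used here do not state the gene annotation, intron setting or cell calling. The features and barcodes files, deposited as names, hold other text and no measurement. Members and lists were chosen with earlier results of these data known.

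Barcodes, 18572 control and 19056 NTD, were kept at 500 genes, 1000 UMIs and at most 10% mitochondrial UMIs, which removed none. The automatic Scrublet threshold called 0 doublets, so the highest-scoring barcodes at 0.8% per 1000 barcodes were removed instead, 2759 (14.9%) and 2905 (15.2%), a choice made after that result. Both libraries were clustered together in scanpy 1.11.5 with leidenalg 0.10.2 (2000 variable genes without the members, 30 components, 15 neighbours, resolution 1.0). Clusters were named X-like from marker lists by at least 3 markers and a lead of 2, a scoring rule set without being fixed beforehand, and other names may differ. UMI counts were summed per class and library and scaled to CPM, with 0.5 counts added in ratios, and a gene was measured in a class where both libraries together gave 20 UMIs or more. Named members were those with most UMIs per family, the 6 highest and 6 lowest ratios of at least 20 CPM in 4 classes, the highest of each class, and textbook ligand-receptor pairs. Robo3 and Robo4, cluster 21 and cells with no Hox UMI were singled out after values were seen. Intervals are exact (Poisson, conditional binomial or Clopper-Pearson, scipy 1.17.1). The upper limits for 0 counts are approximate, at 3 counts over the cells. Cells thinned to 1500 UMIs left out 3542 control and 0 NTD cells. The alternative scaling was TMM (edgeR 4.0.16). The counting steps were tested on simulated data. Spans and positions came from a GENCODE annotation of GRCm38, in which 5 members overlap a same-strand gene and 22 an opposite-strand gene, and reads of such pairs may not be told apart.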

Additional observations from a re-analysis of the deposited data

Results flagged for a closer look

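For 7 members, ratios passed 1.5-fold in opposite directions in different cell classes of at least 50 cells per library, with counting intervals past 0. These differences between classes were not tested, and with 1 library per group they have no replicate check. The log2 ratio of Sema3a was 1.74 in endothelial-like and -1.90 in neural progenitor-like cells, where its NTD level was read as background, and the ratios were 0.37 and -0.77 with called doublets kept. For Robo2 it was 1.63 in endothelial-like and -1.19 in progenitor-like cells (0.13 and -0.65 with called doublets kept), and for Epha7 1.64 in endothelial-like and -0.74 in mesenchyme-like cells. With called doublets kept the endothelial-like ratios of Sema3a, Robo2 and Epha7 (0.56) did not pass 1.5-fold. Sema5b was at 1.20 in endothelial-like and -1.04 in erythroid-like cells, which are the free-RNA reference and give no level of a cell class, and its endothelial-like ratio was -0.13 with called doublets kept. Dcc was at 1.27 in cardiac-like and -0.90 in neural crest-like cells, and Epha3 at 1.61 in cardiac-like and -1.71 in macrophage-like cells. Unc5c was at 0.91 in macrophage-like and -1.91 in cardiac-like cells. Macrophage-like cells were chosen as a background class for free RNA beside erythroid-like cells. All members summed to 3475 and 3078 CPM in control and NTD macrophage-like cells, and to 2929 and 2463 CPM in erythroid-like cells. The levels of Dcc, Epha3 and Unc5c behind these ratios were not set against free RNA. The cardiac-like class held 56 control and 55 NTD cells.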

How the results depend on the processing

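No paired analysis was possible because each group had 1 library. In neural progenitor-like cells the 3 higher members became 1 with called doublets kept, 0 with cells of at least 1000 genes and 2000 UMIs, 5 relative to genes of like span, 0 with clusters weighted equally and 1 in cells with no Hox UMI. The 25 lower became 15 with the stricter cells, 15 with TMM scaling, 14 relative to genes of like span and 10 with no Hox UMI. The median of -0.45 became -0.32, -0.21, -0.21 and -0.34 in that order, and -0.32 with members among the variable genes. In neuron-like cells the 1 higher member became 2 with doublets kept, 0 with the stricter cells, 3 with TMM scaling, 2 relative to like span, 0 at 50 UMIs, 0 with members among the variable genes, 0 at resolution 2.0, 0 without cluster 21 and 2 with no Hox UMI, and the median of -0.27 became -0.059 with TMM scaling, -0.078 against genes of like span and -0.37 at resolution 2.0. In mesenchyme-like cells the 1 higher member became 2 with doublets kept, 2 with TMM scaling, 3 relative to like span, 0 at 50 UMIs, 2 with members among the variable genes and 0 at resolution 2.0. The 10 lower became 20, 4, 3, 20 and 18 under doublets kept, TMM scaling, like span, members among the variable genes and resolution 2.0, and 18 with the stricter cells, while the median of -0.32 became -0.12 with TMM scaling, and -0.073 against genes of like span. The Sema5b ratio in endothelial-like cells reversed to -0.13 with called doublets kept. Some settings also changed which cells a class held. With the stricter cells an unnamed cluster of 660 control and 24 NTD cells, with Hoxd4 among its top genes, did not enter the progenitor-like class. With doublets kept, members among the variable genes, resolution 2.0 or the stricter cells, the mesenchyme-like class held a mostly control cluster absent from it otherwise. The cause of these moves was not tested. Of 48 ratios of named members, 19 moved relative to genes of like span, 19 with clusters weighted equally, 18 with TMM scaling, 18 with no Hox UMI and 13 with the stricter cells. With called doublets kept 14 moved and 1 reversed. Members with the same top class numbered 51, and 46 to 51 under the alternatives.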
